A study of Mus musculus with 69 samples.

Results

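Livers of high-fat-diet-fed mice labelled JNK7b were compared with livers labelled JNK7a at clock hours 2, 5, 14 and 17, with clock hour kept in the model and all genes tested. The comparison held 21 of the 69 RNA-seq libraries of the study, 10 of JNK7b (3 at hour 2, 2 at hour 5, 2 at hour 14 and 3 at hour 17) and 11 of JNK7a (2, 3, 3 and 3 at the same hours). The livers most clearly differed in fat-handling genes: transcripts of the lipid droplet proteins CIDEA, CIDEC and perilipin 4 and of the triglyceride enzyme MOGAT1 were higher in JNK7b, whereas immunoglobulin transcripts, male-biased genes and, mostly at hour 2, endoplasmic reticulum chaperones were lower.

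All mice were C57/Bl6J, carried the genotype label J1 J2 lf/lf and were kept on a high-fat diet (HFD), so these features were shared by every group. The labels name the control group LJ1J2control and tie it to green fluorescent protein (GFP), JNK7a (LJ1J27a) to the recombinase CRE, and JNK7b (LJ1J27b) to the recombinase FLPO. The compared groups therefore also differed in the recombinase. The labels call the model hepatocyte-specific, and how the proteins were delivered, whether a group name stands for the spliceoform kept or removed, the ages and the light schedule were not stated in the sources. Nothing in the labels says that libraries came from separate animals, so each p-value reflects only how far these samples scatter, which may be technical. The 11 control libraries of the same hours (2, 3, 3 and 3) and the 24 JNK7b and JNK7a libraries of hours 8, 11, 20 and 23 are given beside the comparison.

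The 4 hours were singled out with results of these data known, because the JNK7b libraries fell into separate sets by hour. Atp6v0e2, a subunit of the vacuolar proton pump, lay between 0.427 and 1.42 CPM (counts scaled to a fixed library total) in the 10 JNK7b libraries of these hours and between 5.37 and 15.1 CPM in the 13 JNK7b libraries of the other hours. Cyp2d12, a cytochrome P450, lay between 0.173 and 0.827 CPM here and between 1.80 and 18.2 CPM there. Both genes were chosen after their values were seen. These values chose the hours and are given as a description, and the adjusted p-values below describe these libraries.

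One JNK7b library is given apart because of its values in genes that differed between the groups. The library labelled JNK7b 5 h replicate 2 held 7.15 CPM of Cidec, where the other 9 JNK7b libraries held 47.2 to 98.2 CPM and the JNK7a libraries 1.02 to 10.9 CPM. Its Ighg1 level was 42.1 CPM, where the next highest JNK7b library had 2.14 CPM and the JNK7a libraries reached 63.3 CPM. It is kept under its label, and the main counts are given with and without it. Because it was set apart for these values, larger differences without it follow in part from that choice. Other libraries stood out in other measures: over all genes the largest difference between replicates was that of the pair JNK7a 2 h (chi-square per degree of freedom 240, beside 74.5 for the pair JNK7b 5 h), and JNK7a 2 h replicate 2 had the highest hepatocyte and B cell marker sums. Without JNK7a 2 h replicate 2 the comparison called 666 higher and 566 lower genes, and without JNK7a 2 h replicate 1 it called 791 and 459. Library totals ran from 27.8 to 48.6 M estimated counts over the 32 libraries of these hours. Total counts (exact permutation test within clock hour, 2-sided, all 20000 permutations, p = 0.917) and the mitochondrial share of TPM (13.1% ± 1.32, SD, n = 10 in JNK7b; 12.5% ± 1.24, SD, n = 11 in JNK7a; same exact test, p = 0.189) did not differ beyond the spread. The tissue label held: 17 hepatocyte markers summed to between 101466 and 184595 CPM per library.

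Mapk8 and Mapk9 encode the kinases JNK1 and JNK2, which respond to cellular stress and phosphorylate JUN and other transcription factors. Their transcripts carry either of a pair of mutually exclusive exons within the kinase domain, which gives kinases with different preferences for substrates. In the liver, JNK activity is known to hold back peroxisome proliferator-activated receptor alpha (PPARA), the nuclear receptor that drives fatty acid oxidation, and JNK signalling is tied to fatty liver and insulin resistance in mice on a high-fat diet. Excess fat is stored in hepatocyte lipid droplets, whose growth CIDEC and CIDEA promote by transferring lipid between droplets, and many droplet genes are targets of PPARG, a relative of PPARA that is raised in fatty liver.

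The alternative exons are shown because they are what the group names refer to and what a gene-level count cannot separate. Each is 72 bases long in the GENCODE M21 annotation of mouse GRCm38 (mm10), and 0 annotated transcripts of either gene held both. They are named here by their order in the gene, since the sources used here do not tie 7a and 7b to an order. Capitals mark the bases at which the pair within a gene differ.
Mapk8 upstream exon, chr14:33390673-33390744, minus strand: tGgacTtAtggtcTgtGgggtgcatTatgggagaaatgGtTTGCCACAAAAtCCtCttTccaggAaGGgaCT
Mapk8 downstream exon, chr14:33390242-33390313, minus strand: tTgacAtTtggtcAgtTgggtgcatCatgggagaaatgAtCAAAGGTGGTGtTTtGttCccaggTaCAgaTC
Mapk9 upstream exon, chr11:49873836-49873907, plus strand: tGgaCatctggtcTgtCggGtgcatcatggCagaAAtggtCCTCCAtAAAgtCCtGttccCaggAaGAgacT
Mapk9 downstream exon, chr11:49874264-49874335, plus strand: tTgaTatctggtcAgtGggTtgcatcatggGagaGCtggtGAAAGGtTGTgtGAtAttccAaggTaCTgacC
The exons of the Mapk8 pair differed at 27 bases (62.5% identity) and those of the Mapk9 pair at 25 bases (65.3%). Across the genes, the upstream exons were 81.9% and the downstream exons 79.2% identical, so each exon was closer to its counterpart in the other kinase than to its neighbour. The deposited tables hold 1 value per gene and library, and the use of either exon was not measured.

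Summed over isoforms, the JNK genes themselves differed little. Mapk8 (chromosome 14, 33377898 to 33447158, minus strand) had 12.7, 18.5 and 19.6 CPM as the lowest, median and highest JNK7b library and 11.2, 15.0 and 23.5 CPM in JNK7a. The groups overlapped, with a log2 fold change of JNK7b over JNK7a of 0.19 ± 0.10 (SE; edgeR adjusted p = 0.273). Mapk9 (chromosome 11, 49846751 to 49886421, plus strand) lay between 36.5 and 63.6 CPM in JNK7b (median 53.8) and between 39.0 and 47.3 CPM in JNK7a (median 43.4). The lowest JNK7b value of both genes was that of 5 h replicate 2. The Mapk9 difference was 0.28 ± 0.11 (edgeR adjusted p = 0.107), and 0.34 ± 0.11 (adjusted p = 0.0490) without that library. At the other hours both were called, at 0.36 (Mapk8, adjusted p = 0.00610) and 0.62 (Mapk9, adjusted p = 8.38e-06).

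Of 14398 genes tested, JNK7b had 757 (5.26%) at a higher and 558 (3.88%) at a lower level than JNK7a, at an edgeR adjusted p below 0.05, together 1315 (9.13%). A difference of at least 2-fold was held by 120 of the higher genes (0.833% of those tested) and 87 of the lower (0.604%). The median log2 fold change over all genes was -0.018. Without JNK7b 5 h replicate 2 the counts were 776 (5.39%) and 592 (4.11%), together 9.5% of genes, of which 695 and 467 were among the first calls. Leaving out its partner, JNK7b 5 h replicate 1, left that library as the sole JNK7b sample of hour 5 and gave 469 and 270. Leaving out JNK7b 14 h replicate 1 gave 343 lower genes. Leaving out clock hour 2 gave 398 and 205, and leaving out hour 17 gave 488 and 233. Single hours called 336 genes at hour 2 (2.33%), 1 at hour 5 (0.00695%), 11 at hour 14 (0.0764%) and 188 at hour 17 (1.31%). With all libraries, DESeq2 called 916 higher (6.36%) and 631 lower genes (4.38%), together 10.7%, and limma voom 658 (4.57%) and 466 (3.24%), together 7.81%. The sign was the same at all 4 hours for 672 of the 757 higher genes (88.8%) and 450 of the 558 lower genes (80.6%), a share that selection on the mean of these hours raises.

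Of 122 genes named by rule, 108 were called, and 72 of these kept direction and call whichever of the 21 libraries was left out. For the other 36, the number of libraries whose omission ended the call is given where the gene is named. Levels of all JNK7b libraries lay outside those of all JNK7a libraries for 16 genes (0.111% of those tested), and for 80 (0.556%) without JNK7b 5 h replicate 2. Leaving out a library can only keep or raise this count, and that library was set apart for its values in such genes. The 16 included Acaa1b, Cd81, Cidea, Cplane1, Eci1, Gpx4, Hadh, Mak16, Map1lc3a, Mipep, Pcx, Pgrmc2, Raet1d, Rnd2 and Tmem98, of which those outside the rule were named after their values were seen. Acaa1b, Eci1 and Hadh encode enzymes of fatty acid oxidation, Gpx4 a glutathione peroxidase that reduces lipid peroxides, and Pcx pyruvate carboxylase.

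The list counts (0 of a list means no called member) are set against the share over all genes. Lists and members were chosen with earlier results of these data known, so their counts describe where the called genes lay.

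**Figure D1:**
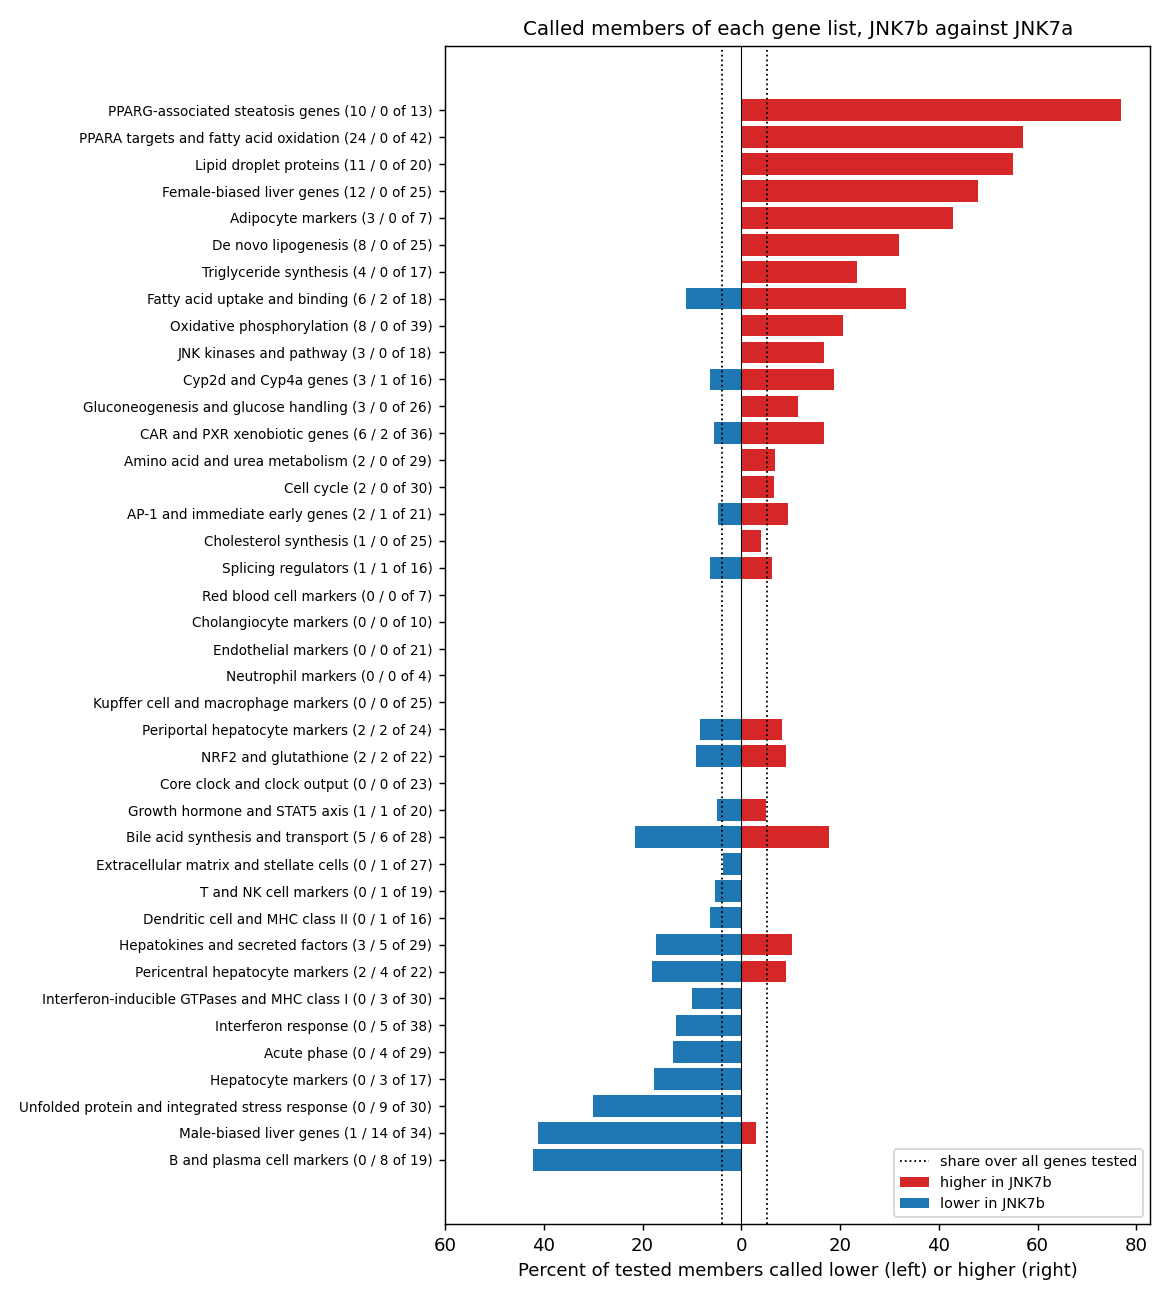
Percent of the tested members of each of 40 gene lists that were called higher (right, red) or lower (left, blue) in JNK7b than in JNK7a, with counts of higher / lower of tested members in each label. Dotted lines mark the shares over all genes, 5.26% higher and 3.88% lower. Lipid lists reach furthest to the right, with 10 of 13 PPARG-associated genes, and B and plasma cell and male-biased lists furthest to the left, with 8 of 19 and 14 of 34.

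Lipid droplet genes were higher in JNK7b. Of 20 tested members of the lipid droplet list, 11 were higher (55%, beside 5.26% of all genes) and 0 lower, with a median log2 fold change of 0.39 beside -0.018 over all genes. The PPARG-associated steatosis list, which shares Cidea, Cidec and Plin4 with it, had 10 of 13 higher (76.9%), 0 lower and a median of 1.87. Without JNK7b 5 h replicate 2 the counts were 12 of 20 and 11 of 13.

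Cidea, a droplet protein best known from brown fat, showed the largest rise. Its levels were 0.692, 17.6 and 43.9 CPM (lowest, median, highest) in JNK7b and 0, 0.300 and 0.628 CPM in JNK7a. The groups did not overlap, and the lowest JNK7b value was that of 5 h replicate 2, just above the highest JNK7a value. The log2 fold change was 5.98 ± 0.77 (SE; edgeR adjusted p = 6.95e-07), and the single hours gave 6.59, 7.74, 4.21 and 5.39 at hours 2, 5, 14 and 17. With limma voom the size was 6.06 and the call was lost (adjusted p = 0.139).

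Cidec (also called Fsp27; chromosome 6, 113424634 to 113435760, minus strand), which fuses lipid droplets, was expressed more strongly. JNK7b libraries held 7.15, 60.5 and 98.2 CPM and JNK7a libraries 1.02, 3.44 and 10.9 CPM. Only JNK7b 5 h replicate 2 fell within the JNK7a range. The log2 fold change was 3.81 ± 0.47 (edgeR adjusted p = 2.94e-07) with all libraries and 4.03 ± 0.45 without that one, and ranged from 3.32 to 4.56 over the single hours. In the control libraries Cidec lay between 14.4 and 107 CPM, against which JNK7b differed by 0.20 and JNK7a by -3.61.

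Plin4 (chromosome 17, 56100591 to 56109803, minus strand), a perilipin of the droplet surface, had 5.73, 36.8 and 67.4 CPM in JNK7b and 2.85, 4.69 and 8.06 CPM in JNK7a. As for Cidec, the lowest JNK7b library was 5 h replicate 2 and the other 9 lay above every JNK7a library. Its log2 fold change was 2.81 ± 0.32 (edgeR adjusted p = 3.36e-08). Plin5, which links droplets to mitochondria, was higher by a smaller step (0.50 ± 0.09, adjusted p = 7.13e-05), with 36.0 to 110 CPM in JNK7b and overlapping values of 26.0 to 63.4 CPM in JNK7a.

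Mogat1 (chromosome 1, 78510991 to 78538173, plus strand) makes diacylglycerol from monoacylglycerol and led the triglyceride synthesis list, of which 4 of 17 tested members were higher (23.5%) and 0 lower. It lay at 1.78, 9.65 and 14.0 CPM in JNK7b and at 0.347, 0.960 and 2.16 CPM in JNK7a, with overlap through JNK7b 5 h replicate 2 alone. Its log2 fold change was 3.04 ± 0.34 (edgeR adjusted p = 3.14e-08). Lpin2, a phosphatidate phosphatase, was higher by 0.80 ± 0.11 (adjusted p = 1.63e-06) and Agpat2, which acylates lysophosphatidate, by 0.33 ± 0.07 (adjusted p = 0.00134). Dgat1 and Dgat2, which add the last acyl chain and were named after their values were seen, had 0.01 and -0.02 and were not called.

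Fatty acid uptake genes moved in both directions. Of 18 tested, 6 were higher (33.3%) and 2 lower (11.1%). Cd36 (chromosome 5, 17781690 to 17888801, minus strand), a fatty acid translocase, had 73.3, 163 and 292 CPM in JNK7b and 19.1, 33.1 and 117 CPM in JNK7a; the 9 libraries other than JNK7b 5 h replicate 2 lay above all of JNK7a. Its log2 fold change was 1.88 ± 0.29 (edgeR adjusted p = 1.41e-05). Vldlr, the very-low-density lipoprotein receptor, was higher by 1.99 ± 0.31 (adjusted p = 1.30e-05) and the fatty acid transport protein gene Slc27a1 by 0.92 ± 0.17 (adjusted p = 0.000184). Fabp4, a fatty acid binding protein of fat cells and macrophages, was called (0.70 ± 0.21, adjusted p = 0.0275), but leaving out any of 6 libraries ended the call (adjusted p up to 0.150). The lower members were Lrp2, encoding the endocytic receptor megalin (1.02 to 5.87 CPM in JNK7b and 5.80 to 16.3 CPM in JNK7a, -1.75 ± 0.33, adjusted p = 0.000277), and Lpl, lipoprotein lipase (-0.82 ± 0.21, adjusted p = 0.00743), both named after their values were seen.

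Pparg itself, named after its values were seen, had 11.3, 18.8 and 24.0 CPM in JNK7b and 3.39, 8.78 and 16.1 CPM in JNK7a. The ranges overlapped, and the log2 fold change was 1.09 ± 0.19 (edgeR adjusted p = 8.04e-05). Apoa4, an apolipoprotein of triglyceride-rich particles on the same list, was higher by 1.87 ± 0.37 (adjusted p = 0.000491), with 389 to 2663 CPM in JNK7b and 195 to 530 CPM in JNK7a.

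**Figure D2:**
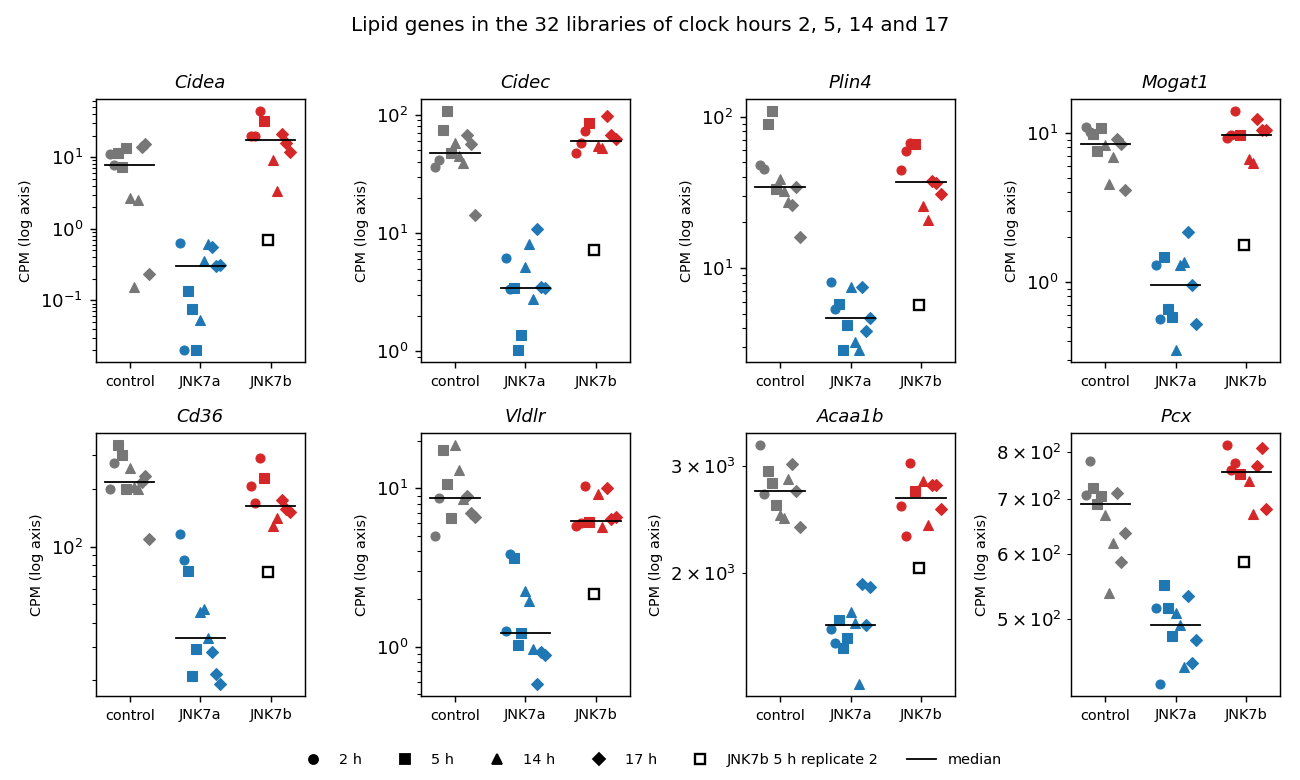
CPM (log axis) of 8 lipid and metabolic genes in each of the 32 libraries of clock hours 2, 5, 14 and 17, by group (control grey, JNK7a blue, JNK7b red); symbols give the hour, the open square is JNK7b 5 h replicate 2, bars are medians and values under 0.02 CPM are drawn at 0.02. For Cidec the medians are 47.4 CPM in control, 3.44 in JNK7a and 60.5 in JNK7b, and the open square, at 7.15 CPM, lies in the JNK7a range.

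Fat-burning genes were higher in JNK7b together with fat-storing genes. Of 42 tested PPARA targets and fatty acid oxidation genes, 24 were higher (57.1%) and 0 lower, with a median log2 fold change of 0.29; without JNK7b 5 h replicate 2 the count was 22. Pex11a, which divides peroxisomes, had 143, 236 and 277 CPM in JNK7b and 94.8, 121 and 166 CPM in JNK7a. The ranges overlapped, and the log2 fold change was 0.84 ± 0.13 (edgeR adjusted p = 1.73e-05), a small step against those of Cidec and Plin4. The peroxisomal thiolase gene Acaa1b was higher by 0.67 ± 0.11 (adjusted p = 2.59e-05). For Acaa1b the lowest JNK7b library (2039 CPM) lay above the highest JNK7a library (1914 CPM).

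Other members of this list, named after their values were seen, covered the steps of the pathway. Ppara was higher by 0.31 ± 0.10 (edgeR adjusted p = 0.0354), the mitochondrial entry enzyme Cpt1a by 0.41 ± 0.09 (edgeR adjusted p = 0.000963), the acyl-CoA thioesterase Acot2 by 1.34 ± 0.23 (adjusted p = 6.69e-05) and Pdk4, which blocks pyruvate oxidation, by 1.16 ± 0.26 (adjusted p = 0.00196). The step was not uniform, since Hadha, Hadhb and Acadvl, which carry out mitochondrial beta-oxidation of long chains, had 0.09, 0.06 and 0.10 and were not called. Of 11 tested Acot genes, a family counted after values were seen and whose members are close in sequence, so that reads may be split between them, 9 were higher and 0 lower (median 0.66), and 8 were higher without JNK7b 5 h replicate 2.

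Genes of de novo lipogenesis were higher too. Of 25 tested lipogenesis genes, 8 were higher (32%) and 0 lower, with a median of 0.36. Elovl5 (chromosome 9, 77917364 to 77984519, plus strand), an elongase of polyunsaturated fatty acids, had 753, 1276 and 1514 CPM in JNK7b and 381, 647 and 1093 CPM in JNK7a, with overlapping ranges and a log2 fold change of 0.95 ± 0.17 (edgeR adjusted p = 0.000135). Acacb, which makes the malonyl-CoA that limits fatty acid entry into mitochondria, was higher by 1.26 ± 0.23 (adjusted p = 0.000204), Insig2, a brake on SREBP processing, by 0.68 ± 0.13 (adjusted p = 0.000255) and the NADPH source Me1 by 0.89 ± 0.22 (adjusted p = 0.00442; 0.0903 without clock hour 2). Scd1, the stearoyl-CoA desaturase, named after its values were seen, had 1.43 ± 0.33 (adjusted p = 0.00344), with a spread from 2940 to 25793 CPM in JNK7b and from 329 to 16293 CPM in JNK7a. Fasn (0.40), Acaca (0.36) and Srebf1 (-0.16), also named after their values were seen, were not called.

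Pcx (chromosome 19, 4510472 to 4621752, plus strand), which feeds both gluconeogenesis and the tricarboxylic acid cycle, had 587, 756 and 817 CPM in JNK7b and 416, 491 and 550 CPM in JNK7a. All JNK7b libraries lay above all JNK7a libraries, and the log2 fold change was 0.58 ± 0.08 (edgeR adjusted p = 1.19e-06). It led the gluconeogenesis and glucose list, of which 3 of 26 were higher (11.5%) and 0 lower. Ppp1r3g, a glycogen-targeting subunit, was called at 1.85 ± 0.52 (adjusted p = 0.0162), a call that ended without JNK7a 2 h replicate 1 (adjusted p = 0.0535). Cholesterol synthesis differed in 1 of 25 tested genes (4%, near the share over all genes), Acat2, at 0.55 ± 0.14 (adjusted p = 0.00533; 0.0679 without clock hour 2).

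Nuclear genes of oxidative phosphorylation were higher by small steps, 8 of 39 (20.5%) and 0 lower, with a median of 0.12. Sdha, the flavoprotein of complex II, had 546 ± 24.2 CPM (SD, n = 10) in JNK7b and 479 ± 29.5 CPM (SD, n = 11) in JNK7a (0.19 ± 0.04, edgeR adjusted p = 0.000856). Sdhd of complex II (0.15, edgeR adjusted p = 0.00329; 0.0810 without clock hour 2) and Uqcrc1 of complex III (0.19, adjusted p = 0.00483; 0.150 without clock hour 2) had steps of like size. With limma on log2(TPM + 1) and on log2(TPM + 0.1), Sdha and Sdhd were not called, whereas Uqcrc1 was. At the other hours the list had 2 higher and 4 lower members of 39, where 11% and 10.7% of all genes were higher and lower.

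Promoters of droplet genes that rose together, and of Dusp8, are shown with the matches to 3 motifs in capitals: the AP-1 site TGANTCA bound by JUN dimers, the CRE site TGACGTCA bound by ATF and CREB proteins, and the PPAR element DR1. The sequences are RefSeq's, build GRCm38.p6, from 250 bases before to 50 bases after an annotated start, and both strands were searched.
Cidec, chr6:113435711-113436010, minus strand: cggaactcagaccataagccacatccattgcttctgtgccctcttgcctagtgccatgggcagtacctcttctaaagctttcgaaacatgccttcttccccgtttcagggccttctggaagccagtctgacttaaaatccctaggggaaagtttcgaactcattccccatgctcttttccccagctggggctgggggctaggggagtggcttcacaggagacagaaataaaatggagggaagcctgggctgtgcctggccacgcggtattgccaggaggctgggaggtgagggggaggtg
Cidec, chr6:113434715-113435014, minus strand: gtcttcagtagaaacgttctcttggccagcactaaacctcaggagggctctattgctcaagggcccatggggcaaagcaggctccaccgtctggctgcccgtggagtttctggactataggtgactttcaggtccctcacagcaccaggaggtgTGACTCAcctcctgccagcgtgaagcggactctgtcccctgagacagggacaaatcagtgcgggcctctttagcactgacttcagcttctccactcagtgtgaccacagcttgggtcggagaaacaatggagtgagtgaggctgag
Plin4, chr17:56109733-56110032, minus strand: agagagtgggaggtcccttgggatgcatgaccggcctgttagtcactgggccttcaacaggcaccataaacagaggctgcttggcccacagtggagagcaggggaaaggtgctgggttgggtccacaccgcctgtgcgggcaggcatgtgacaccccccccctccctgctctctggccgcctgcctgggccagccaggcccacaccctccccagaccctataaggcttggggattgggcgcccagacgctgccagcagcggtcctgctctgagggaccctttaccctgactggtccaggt
Dusp8, chr7:142095235-142095534, minus strand: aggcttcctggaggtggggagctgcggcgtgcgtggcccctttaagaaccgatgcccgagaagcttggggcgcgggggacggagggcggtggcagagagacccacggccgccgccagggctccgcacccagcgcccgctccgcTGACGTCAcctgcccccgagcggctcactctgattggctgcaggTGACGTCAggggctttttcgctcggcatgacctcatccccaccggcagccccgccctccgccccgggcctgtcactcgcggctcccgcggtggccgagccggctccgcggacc
The second Cidec start held 1 AP-1 match and the Dusp8 promoter 2 CRE matches, and the first Cidec start and Plin4 held none of the 3 motifs. Over all 32851 promoters of this length, 7.81% held the AP-1 letters, 1.79% the CRE letters and 0.381% the DR1 letters. Among promoters of the genes tested the shares were 5.37%, 2.75% and 0.274%, and among those of the higher genes 6.62%, 2.87% and 0.499%, with 581 of the 757 matched by symbol. Promoters of the lower genes held the letters in 6.29%, 1.18% and 0.393%, so the AP-1 share was above that of all tested genes in both directions. The DR1 shares rest on 4 of 801 promoters of the higher and 2 of 509 of the lower genes, too few to compare. These are matches of letters, not binding sites, and their absence in a window says nothing about a factor.

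In the JNK pathway list, 3 of 18 tested genes were higher (16.7%) and 0 lower. Dusp8 (chromosome 7, 142079490 to 142095843, minus strand), a phosphatase that removes activating phosphates from JNK and p38 kinases, had 0.165, 1.92 and 5.78 CPM in JNK7b and 0.0261, 0.160 and 1.16 CPM in JNK7a. The ranges overlapped: JNK7b 5 h replicate 2 was the lowest of its group, and both JNK7a libraries of hour 2 were the highest of theirs. The log2 fold change was 3.28 ± 0.43 (edgeR adjusted p = 5.97e-07), from 1.66 at hour 2 to 5.22 at hour 17, and control libraries held 0.646 to 3.78 CPM. The mixed-lineage kinase gene Map3k10 (0.31 ± 0.09, adjusted p = 0.0201; 0.0512 without JNK7b 2 h replicate 3) and the phosphatase gene Dusp10 (0.49 ± 0.16, adjusted p = 0.0415; call ended by leaving out any of 12 libraries, adjusted p up to 0.136) were called less firmly. The JNK activators Map2k4 (-0.05) and Map2k7 (-0.22), named after their values were seen, were not called.

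Among AP-1 and immediate early genes, 2 of 21 were higher (9.52%) and 1 lower (4.76%), close to the shares over all genes. Jund (chromosome 8, 70698949 to 70700616, plus strand) had 40.9, 65.7 and 91.3 CPM in JNK7b and 33.2, 43.0 and 52.1 CPM in JNK7a, a log2 fold change of 0.65 ± 0.10 (edgeR adjusted p = 1.06e-05). Jun (chromosome 4, 95049034 to 95052222, minus strand), the classical JNK substrate, had 7.48, 24.1 and 55.8 CPM and 7.65, 9.42 and 18.2 CPM, a log2 fold change of 1.37 ± 0.25 (adjusted p = 0.000220). For both genes the 9 JNK7b libraries other than 5 h replicate 2 lay above all JNK7a libraries. Jun differed from control by -0.01 in JNK7b and by -1.38 in JNK7a. Ier2, an immediate early gene, was called lower (-0.46 ± 0.15, adjusted p = 0.0388), and leaving out any of 14 libraries ended that call (adjusted p up to 0.157). Fos (0.25), Junb (-0.24) and Egr1 (-0.10), named after their values were seen, were not called.

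**Figure D3:**
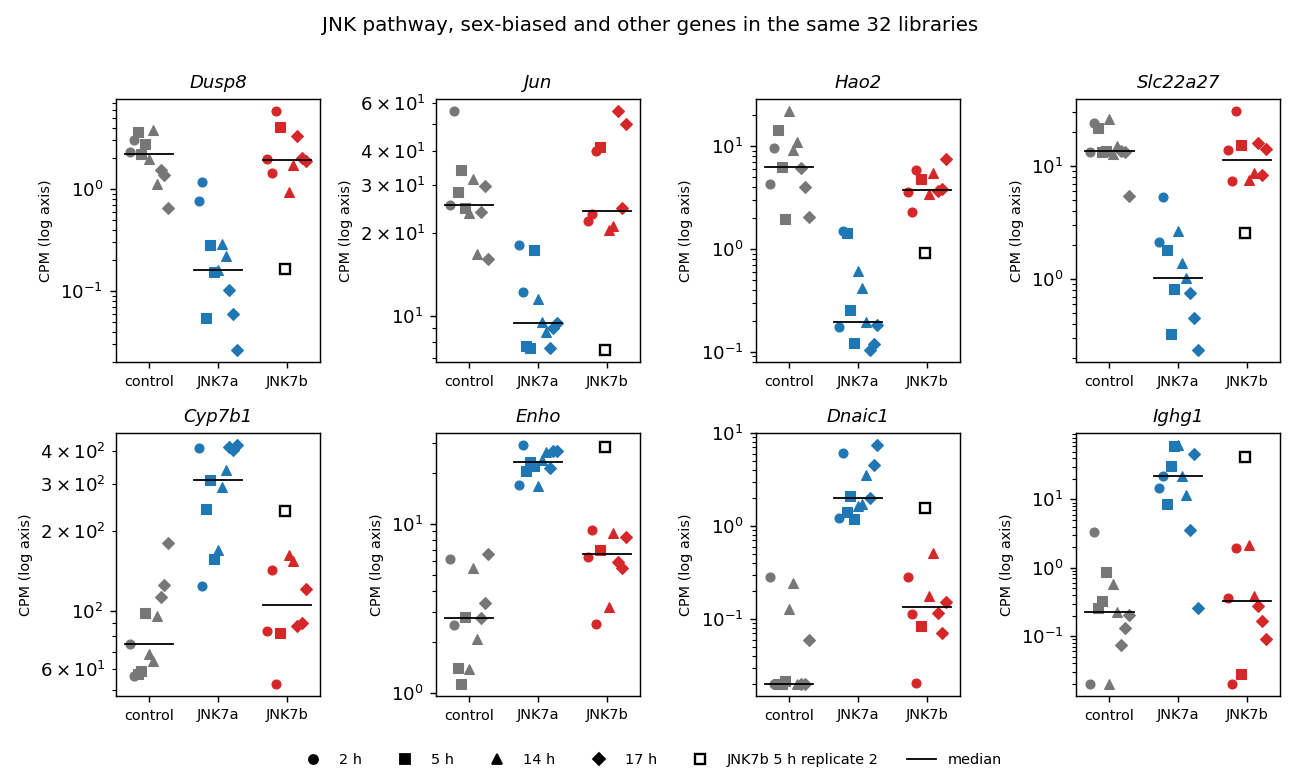
CPM (log axis) of 8 further genes in the 32 libraries, with colours, symbols, open square and bars as in the plot of lipid genes; values under 0.02 CPM are drawn at 0.02. For Dusp8 and Jun the medians of JNK7b (1.92 and 24.1 CPM) lie near those of control (2.22 and 25.3 CPM), and for Enho, Dnaic1 and Ighg1 the open square lies among the JNK7a libraries.

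Sex-biased liver genes differed by their bias. Many liver genes are set by the male or female pattern of growth hormone release acting through STAT5B. Of 25 tested female-biased genes, 12 were higher in JNK7b (48%) and 0 lower, with a median of 0.42; of 34 male-biased genes, 1 was higher (2.94%) and 14 lower (41.2%), with a median of -0.63. Without JNK7b 5 h replicate 2 the counts were 11 and 0, and 1 and 12. Against the control libraries of the same hours, JNK7b had 0 higher and 0 lower female-biased genes and JNK7a 2 higher and 12 lower. For the male-biased genes these counts were 0 and 1 in JNK7b and 19 and 0 in JNK7a. Over all genes the shares were 0.118% and 0.0695% in JNK7b and 6.34% and 7.9% in JNK7a. The closeness of JNK7b to control is among the values that chose the hours, so its low counts were given by that choice.

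Hao2 (chromosome 3, 98874521 to 98893239, minus strand), a peroxisomal hydroxy acid oxidase, had the largest rise of the female-biased genes named here. It had 0.923, 3.74 and 7.53 CPM in JNK7b and 0.103, 0.194 and 1.48 CPM in JNK7a, with JNK7b 5 h replicate 2 the sole library in the other group's range. Its log2 fold change was 3.25 ± 0.48 (edgeR adjusted p = 6.97e-06), and control libraries held 1.94 to 21.9 CPM. The organic anion transporter genes Slc22a27 (3.10 ± 0.44, adjusted p = 3.85e-06) and Slc22a29 (2.62 ± 0.39, adjusted p = 8.01e-06) and the cytochrome P450 gene Cyp2b9 (2.51 ± 0.60, adjusted p = 0.00436; 0.183 without clock hour 17) followed, all members of families close in sequence, so that reads may be shared with relatives. Ntrk2, a neurotrophin receptor, was called at 1.97 ± 0.39 (adjusted p = 0.000594), a call that ended without JNK7b 5 h replicate 1 (adjusted p = 0.266).

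Cyp2c70 (chromosome 19, 40153353 to 40187333, minus strand) makes the muricholic bile acids of mice. It had the smallest edgeR adjusted p of the male-biased genes named here, not the largest fall. It had 89.1, 146 and 243 CPM in JNK7b and 200, 293 and 459 CPM in JNK7a, with overlap and a log2 fold change of -0.99 ± 0.17 (edgeR adjusted p = 8.49e-05). Cyp7b1, an oxysterol hydroxylase, was lower by -1.23 ± 0.25 (adjusted p = 0.000869; 0.0514 without clock hour 17), Gstp1, a glutathione transferase, by -0.98 ± 0.22 (adjusted p = 0.00221; 0.0503 without clock hour 17) and Cspg5, a membrane proteoglycan, by -1.85 ± 0.37 (adjusted p = 0.000443; 0.520 ± 0.518 CPM in JNK7b and 1.76 ± 0.609 CPM in JNK7a). Hsd3b5, a steroid reductase of male liver, fell from 155 ± 79.5 CPM in JNK7a to 34.9 ± 36.1 CPM in JNK7b (-2.20 ± 0.71, adjusted p = 0.0407), a call that ended when any of 12 libraries was left out (adjusted p up to 0.191). The exception was Mup17, a major urinary protein, higher at 2.04 ± 0.55 (adjusted p = 0.0119; 0.0575 without JNK7a 2 h replicate 2); of 20 tested Mup genes, near-identical copies among which reads cannot be placed with certainty, 2 were higher and 1 lower. The 20 genes of the growth hormone and STAT5 list had 1 higher, Stat5a (0.39 ± 0.10, adjusted p = 0.00781; 0.228 without clock hour 2 and 0.0514 without hour 17), and 1 lower, Igfbp2, a binding protein of insulin-like growth factors (-0.65 ± 0.15, adjusted p = 0.00296; 0.272 without clock hour 2).

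Immunoglobulin transcripts made up most of the largest falls. Of 19 tested B and plasma cell markers, 8 were lower in JNK7b (42.1%, beside 3.88% of all genes) and 0 higher, with a median of -1.43. The summed level of all 22 markers was 16.5, 56.6 and 306 CPM in JNK7b (lowest, median, highest), 91.8, 319 and 869 CPM in JNK7a and 16.8, 37.9 and 489 CPM in control. The highest JNK7b library was 5 h replicate 2, and 0 markers were at 0 in all 32 libraries. In bulk liver, fewer such cells and less RNA per cell cannot be told apart.

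Ighg1 (chromosome 12, 113325240 to 113330523, minus strand), the constant region of IgG1 heavy chains, had 0, 0.323 and 42.1 CPM in JNK7b and 0.261, 22.0 and 63.3 CPM in JNK7a. The 9 JNK7b libraries other than 5 h replicate 2 reached at most 2.14 CPM, and 1 JNK7a library, of hour 17, lay among them. The log2 fold change was -4.06 ± 0.85 (edgeR adjusted p = 0.000997), and -6.41 ± 1.24 without that JNK7b library. Limma voom did not call it (adjusted p = 0.0665). At the other hours it was 0.91 ± 0.69 and not called (adjusted p = 0.380).

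Ighv1-4 (chromosome 12, 114487136 to 114487569, minus strand), a heavy chain variable segment, was low throughout. It lay between 0 and 2.37 CPM in JNK7b (median 0) and between 0 and 4.53 CPM in JNK7a (median 1.94), and its fitted change of -4.66 ± 0.99 (edgeR adjusted p = 0.00138) rests on counts near 0 in most JNK7b libraries and lost its call without clock hour 17 (adjusted p = 0.0539). Ighg3 (chromosome 12, 113356224 to 113361232, minus strand), the IgG3 constant region, lay between 0 and 2.83 CPM (median 0.0139) and between 0 and 11.7 CPM (median 1.40), and its call (-3.85 ± 1.07, adjusted p = 0.0139) ended without any of 4 libraries (adjusted p up to 0.203). Ighg2c was lower by -3.02 ± 0.71 (adjusted p = 0.00358; 0.0581 without clock hour 17) and Jchain, which joins IgA and IgM subunits, by -1.75 ± 0.41 (adjusted p = 0.00342; 0.0906 without clock hour 17). Ighg2b (-2.21 ± 0.60, adjusted p = 0.0129; ended by any of 3 libraries, up to 0.0667), Ighv8-8 (-3.06 ± 0.82, adjusted p = 0.0117; 0.0502 without JNK7b 5 h replicate 1) and Igkv4-59 (-2.36 ± 0.79, adjusted p = 0.0483; ended by any of 12 libraries, up to 0.234) were less firm, while Igkv10-96 (-3.02 ± 0.66, adjusted p = 0.00149) and Igkv1-135 (-2.93 ± 0.59, adjusted p = 0.000629) kept their calls without each library. Over all 33 tested immunoglobulin genes, counted after values were seen, 17 were lower and 0 higher (median -2.21). Without JNK7b 5 h replicate 2, 20 were lower. At the other hours 4 of the 33 were higher and 1 lower, beside 11% and 10.7% of all genes. Variable segments are alike in sequence, so reads may be shared among them.

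Other immune markers moved less. Of 19 tested T and NK cell markers, 1 was lower (5.26%), Cd4, the co-receptor of helper T cells (-2.11 ± 0.46, edgeR adjusted p = 0.00149; 0.0713 without clock hour 17), and 0 higher, with a median of -0.78; the sum of 26 markers was 4.85, 7.60 and 17.7 CPM in JNK7b and 8.33, 16.7 and 33.4 CPM in JNK7a. Of 16 dendritic cell and MHC class II genes, 1 was lower, Ciita, the class II transactivator (-1.07 ± 0.30, adjusted p = 0.0159; ended by any of 4 libraries, up to 0.0898). Of 25 Kupffer cell and macrophage markers 0 were called by edgeR, DESeq2 or limma voom, with 1, 1 and 0 at an unadjusted p below 0.05; their sum was 442 to 759 CPM in JNK7b and 302 to 942 CPM in JNK7a. How far these marker levels bear on the immune genes was not tested.

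**Figure D4:**
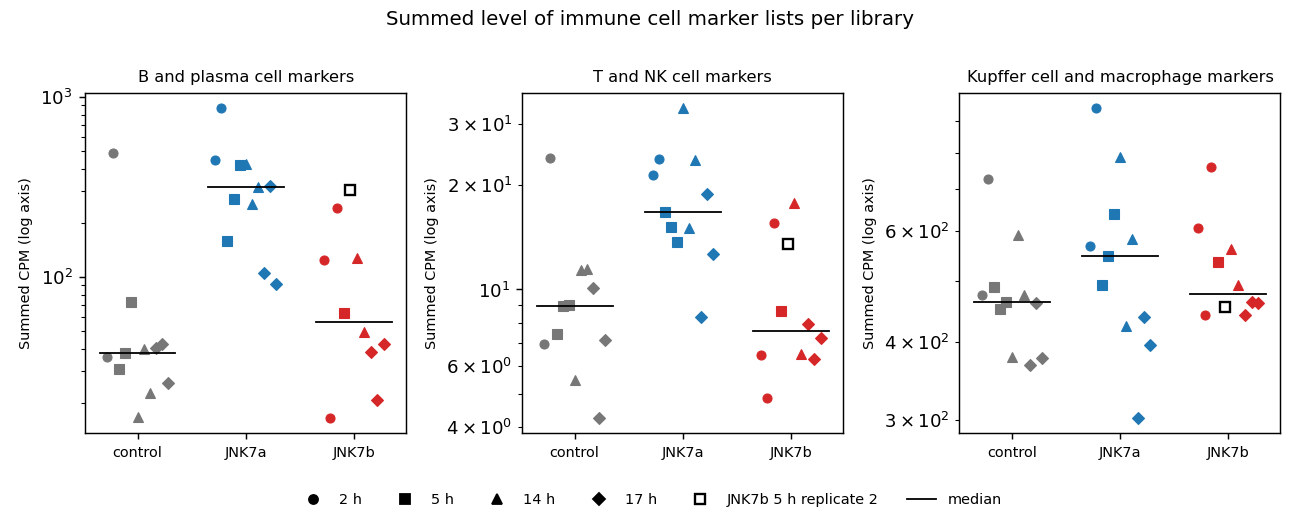
Summed CPM (log axis) of all listed markers of B and plasma cells, T and NK cells and macrophages in each of the 32 libraries, with colours, symbols, open square and bars as in the plot of lipid genes. The B and plasma cell sum has medians of 37.9 CPM in control, 319 in JNK7a and 56.6 in JNK7b, and the macrophage sums overlap throughout.

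Interferon genes were lower in JNK7b in few cases. Of 38 tested response genes, 5 were lower (13.2%) and 0 higher, with a median of -0.19, and 4 were lower without JNK7b 5 h replicate 2. The leading member was Ifi47, an interferon-gamma-induced GTPase, with 8.99, 11.3 and 22.6 CPM in JNK7b and 11.5, 16.9 and 43.8 CPM in JNK7a (-0.71 ± 0.16, edgeR adjusted p = 0.00168; 0.0555 without clock hour 14). The calls of Bst2 (-0.30, ended by any of 6 libraries, adjusted p up to 0.0986), Mx2 (-0.81, 5 libraries, up to 0.130) and Zbp1 (-0.62, 10 libraries, up to 0.247) were not firm. Of 30 interferon-inducible GTPase and MHC class I genes, 3 were lower (10%) and 0 higher. Irgm2 (-0.50 ± 0.14, adjusted p = 0.0156) lost its call without any of 3 libraries (up to 0.0905) and Tgtp1 (-1.23 ± 0.35, adjusted p = 0.0157) without any of 4 (up to 0.224). At the other hours the response list had 30 higher and 0 lower members, beside 11% and 10.7% of all genes, with a median of 0.65.

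Endoplasmic reticulum chaperones were lower. Among 30 tested genes of the stress responses of this compartment, 9 were lower (30%) and 0 higher, with a median of -0.28. Xbp1, the transcription factor that expands the secretory apparatus, had 115, 133 and 167 CPM in JNK7b and 144, 179 and 269 CPM in JNK7a, with a log2 fold change of -0.43 ± 0.08 (edgeR adjusted p = 0.000328) and values from -0.59 to -0.29 over the single hours. Pdia6, a disulfide isomerase (-0.45 ± 0.09, adjusted p = 0.000443), Dnajc3, a cochaperone (-0.37 ± 0.08, adjusted p = 0.00153; -0.25 without JNK7a 2 h replicate 1), and Hsp90b1 (-0.44 ± 0.10, adjusted p = 0.00284; 0.0774 without JNK7a 2 h replicate 1) were also called. Their differences lay mostly at hour 2, with -1.14 for Pdia6, -0.93 for Dnajc3 and -1.24 for Hsp90b1, against values from -0.35 to -0.01 at the other 3 hours. Without hour 2 the adjusted p was 0.239 for Pdia6, 0.286 for Dnajc3 and 0.470 for Hsp90b1, so these calls were lost. The called members of the list were chaperones, folding enzymes and Xbp1, whereas the stress effectors Ddit3 (-0.20), Atf4 (-0.11) and Trib3 (0.09), named after their values were seen, were not called. Plasma cells also express Xbp1 and these chaperones at a high level, and the part of the immune marker sums in this group was not tested.

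Single genes with large falls lay outside these groups. Dnaic1 (chromosome 4, 41569775 to 41638158, plus strand), a dynein chain of motile cilia, had 0.0204, 0.135 and 1.58 CPM in JNK7b and 1.19, 1.99 and 7.51 CPM in JNK7a. Without JNK7b 5 h replicate 2 the highest JNK7b library had 0.518 CPM and the groups did not overlap. Its log2 fold change was -3.44 ± 0.57 (edgeR adjusted p = 3.64e-05); control libraries reached 0.282 CPM, and at the other hours JNK7b, at 0.474 to 11.2 CPM, had values like those of JNK7a, at 0.600 to 8.79 CPM (log2 fold change 0.34 ± 0.44, adjusted p = 0.631). Meg3, an imprinted long noncoding RNA, was lower here (-2.65 ± 0.56, edgeR adjusted p = 0.00111; -4.40 without JNK7b 5 h replicate 2) and higher at the other hours (3.14, adjusted p = 1.15e-06). Adgrf1, an adhesion G protein-coupled receptor, was lower by -2.30 ± 0.53 (adjusted p = 0.00300; 0.0754 without clock hour 17).

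Among secreted factors, 3 of 29 were higher (10.3%) and 5 lower (17.2%). Enho, encoding the peptide adropin, had 2.57, 6.66 and 28.3 CPM in JNK7b and 16.6, 23.1 and 29.3 CPM in JNK7a, with JNK7b 5 h replicate 2 at 28.3 CPM and every other JNK7b library at or below 9.15 CPM. Its log2 fold change was -1.52 ± 0.28 (edgeR adjusted p = 0.000168), and -1.85 ± 0.30 without that library. At the other hours it was -0.19 ± 0.25 and not called (edgeR adjusted p = 0.647). Enho (chromosome 4, 41638144 to 41640324, minus strand) overlaps the end of Dnaic1 on the opposite strand, so both falls lie at the same locus. Whether these genes share reads was not tested. Inhbc, an activin subunit, was lower by -0.48 ± 0.09 (adjusted p = 0.000286).

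Bile acid genes split: of 28 tested, 5 were higher (17.9%) and 6 lower (21.4%). Cyp8b1, the sterol 12-alpha-hydroxylase that sets the share of cholic acid, was higher by 0.79 ± 0.16 (edgeR adjusted p = 0.000611) and Abcb4, the phospholipid exporter, by 0.31 ± 0.06 (adjusted p = 0.000669), against the lower Cyp2c70 and Cyp7b1. Of 36 xenobiotic genes of the CAR and PXR list, 6 were higher (16.7%) and 2 lower (5.56%), and 7 were lower without JNK7b 5 h replicate 2; Abcc3, an export pump, was higher by 0.57 ± 0.14 (adjusted p = 0.00394), Cyp2c38 by 0.92 ± 0.22 (adjusted p = 0.00406; 0.0546 without clock hour 17), and Ces2c, a carboxylesterase, lower by -1.40 ± 0.22 (adjusted p = 2.26e-05; -0.91 without JNK7a 2 h replicate 1). Pericentral hepatocyte markers also split, 2 higher and 4 lower of 22: Glul, glutamine synthetase, was higher by 0.61 ± 0.11 (adjusted p = 8.21e-05) and Cyp1a2 lower by -0.92 ± 0.18 (adjusted p = 0.000397). The calls of Cyp2c37 (-0.85, up to 0.101) and Rnase4 (-0.48, up to 0.115) each ended without either of 2 libraries. Periportal markers had 2 higher, among them Apoc2, an activator of lipoprotein lipase (0.61 ± 0.12, adjusted p = 0.000245), and 2 lower of 24.

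The remaining lists had few called members in number, but some of them, such as the adipocyte list, had shares above those over all genes. Core clock and clock output genes had 0 of 23 called by edgeR, DESeq2 or limma voom (2, 3 and 1 at an unadjusted p below 0.05), a median of -0.01, and Bhlhe40 (119 ± 41.5 CPM in JNK7b, 130 ± 50.4 CPM in JNK7a) and Tef (116 ± 57.8 and 117 ± 73.6 CPM) as their most abundant members. Endothelial (21 tested), cholangiocyte (10), neutrophil (4) and red blood cell markers (7) had 0 called members by the 3 tools, with 2, 1, 0 and 0 at an unadjusted edgeR p below 0.05; by DESeq2 these counts were 2, 1, 0 and 0 and by limma voom 3, 0, 0 and 0. Extracellular matrix and stellate cell genes had 1 lower of 27, Fn1, fibronectin (-0.17, ended by any of 7 libraries, up to 0.168). Acute phase genes had 4 lower of 29 (13.8%), of which Saa3 (-0.98, 9 libraries, up to 0.206), Fgb (-0.29, 4, up to 0.119), Fgg (-0.27, 12, up to 0.164) and Itih3 (-0.51, 14, up to 0.146) each lost the call without any of the libraries counted. Hepatocyte markers had 3 lower of 17 (17.6%), among them the secreted proteins Serpina1a (-0.34 ± 0.08, edgeR adjusted p = 0.00521; 0.0609 without clock hour 2 and 0.103 without hour 17) and Ahsg (-0.33 ± 0.08, adjusted p = 0.00349; 0.0538 without JNK7a 2 h replicate 2). Amino acid and urea genes had 2 higher of 29, Gpt2, an alanine transaminase (0.32 ± 0.07, adjusted p = 0.00165; 0.107 without clock hour 2), and Bhmt (0.72, ended by any of 13 libraries, up to 0.144). Glutathione and NRF2 genes had 2 higher (9.09%) and 2 lower (9.09%) of 22, led by the lower Gstp1. The higher members were Me1 and Gpx4 (0.43 ± 0.11, edgeR adjusted p = 0.00502, and 0.0727 without clock hour 5). Cell cycle genes had 2 higher of 30, E2f1 (0.48, ended by any of 3 libraries, up to 0.156) and Cdk1 (1.01, 10 libraries, up to 0.118), and splicing regulators 1 higher and 1 lower of 16, the latter Srsf1 (-0.25, ended by any of 6 libraries, up to 0.0745). The Cyp2d and Cyp4a list had 3 higher (18.75%) and 1 lower (6.25%) of 16, the lower being Cyp4f14 (-0.47, ended by either of 2 libraries, up to 0.116). Adipocyte markers had 3 higher of 7 (42.9%), Cidec, Fabp4 and Car3, a carbonic anhydrase (0.66 ± 0.10, edgeR adjusted p = 3.85e-06). All 13 listed markers, which include Cidec and Car3, summed to 4550 to 7088 CPM in JNK7b and 2772 to 5454 CPM in JNK7a. Car3 alone, with means of 4201 CPM in JNK7b and 2689 CPM in JNK7a, made up most of these sums.

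Set beside the control livers of the same hours, the difference lay mostly with JNK7a. JNK7b against control had 17 higher and 10 lower genes (0.118% and 0.0695%), and 8 and 2 without JNK7b 5 h replicate 2, whereas JNK7a against control had 913 (6.34%) and 1137 (7.9%). Both comparisons share the 11 control libraries, and the closeness of JNK7b to control at these hours is among the values that chose the hours. For Cidec, Plin4, Mogat1, Dusp8 and Jun, the log2 difference from control was 0.20, -0.21, -0.01, 0.00 and -0.01 in JNK7b, and -3.61, -3.02, -3.06, -3.28 and -1.38 in JNK7a. Igfbp2 (0.88 and 1.53) and Enho (1.34 and 2.86) had JNK7b values between control and JNK7a. Both were called in JNK7b against control (edgeR adjusted p = 0.00421 and 0.0253). The Enho value includes JNK7b 5 h replicate 2, at 28.3 CPM, where every other JNK7b library was at or below 9.15 CPM. Hao2 (-0.89 and -4.15) also lay between, but JNK7b was not called against control (edgeR adjusted p = 0.505). At the other hours JNK7b against control had 1487 higher (10.3%) and 1471 lower genes (10.2%).

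The same groups at hours 8, 11, 20 and 23, in libraries that the comparison did not use, gave 1578 higher (11%) and 1544 lower genes (10.7%). Of the 757 genes higher here, 422 were higher there, which was 55.7% of the one list and 26.7% of the other, and 18 were lower there. Of the 558 lower genes, 219 were lower there, 39.2% and 14.2% of the lists, and 19 were higher there. The lipid genes had values of like size in both sets of hours, with 4.33 ± 0.49 for Cidec, 2.91 ± 0.32 for Plin4, 3.72 ± 0.35 for Mogat1 and 3.60 ± 0.42 for Dusp8 at the other hours. Of the named genes called in both sets of hours, Meg3 (-2.65 here and 3.14 there) and Cspg5 (-1.85 and 1.27, adjusted p = 0.00217 there) had opposite signs. Further named genes had the opposite sign there without a call, among them Ighg1 (-4.06 and 0.91), Ighg2c (-3.02 and 1.04) and Dnaic1 (-3.44 and 0.34). The difference between the sets of hours was not tested, since the hours were chosen on these data.

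**Figure D5:**
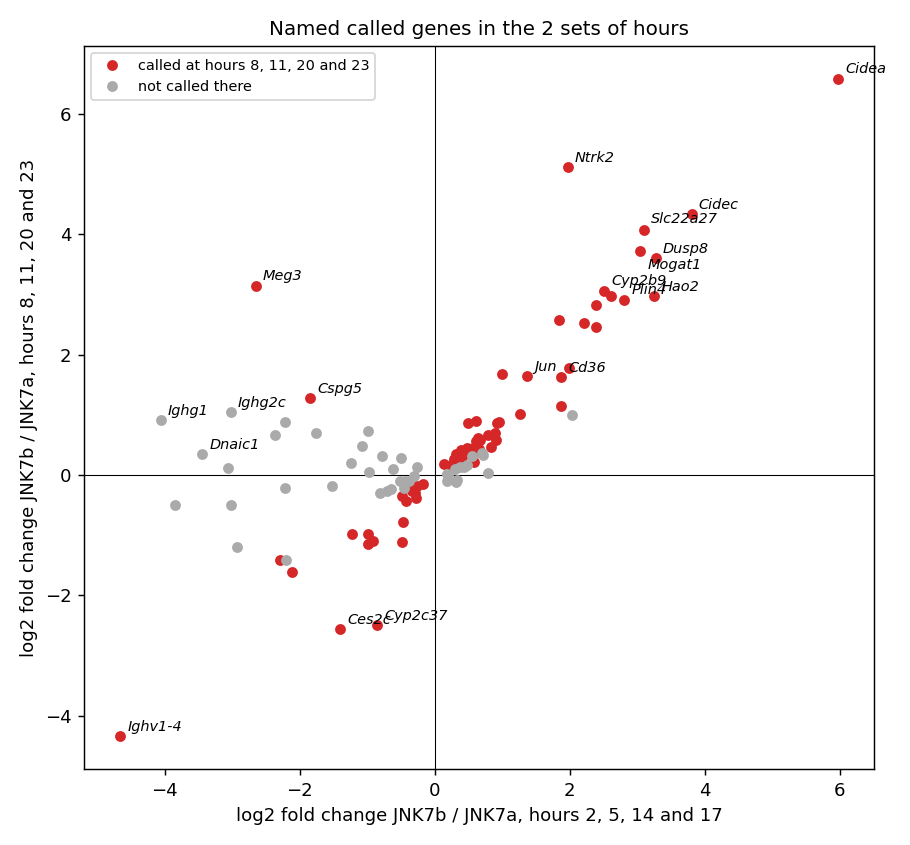
Log2 fold change of JNK7b over JNK7a for the 108 named called genes at clock hours 2, 5, 14 and 17 (x axis) and at hours 8, 11, 20 and 23 (y axis, other libraries); red points were called at the other hours as well. Cidea, Cidec, Dusp8 and Mogat1 lie at the upper right in both sets, and Meg3, at -2.65 and 3.14, lies at the upper left.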

How the data were processed

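Liver RNA was DNase-treated, and polyA libraries were read as 150-base pairs, per the labels' protocols; cutadapt, Salmon and mm10 are listed in the submitters' processing notes, without versions. The authors deposited estimated counts per gene and TPM per gene for 69 libraries. Estimated counts were rounded to whole numbers and lines sharing a symbol were summed. edgeR 4.0.16 (TMM, filterByExpr, robust quasi-likelihood F test, 1 coefficient per group and hour, 24 in all) gave contrasts with equal weight per hour, Benjamini-Hochberg adjusted over 14398 genes; SE is the size of the log2 fold change over the root of F. CPM are counts scaled to TMM-adjusted library totals. DESeq2 1.42.0, limma 3.58.1 voom and limma on log2(TPM + 1) and log2(TPM + 0.1) of the deposited TPM were alternatives, with a pseudocount of 1 or 0.1. In a simulation of JNK7b against JNK7a on 14398 genes, 37 of 50 genes changed 1.5-fold, 47 of 50 changed 2-fold and 50 of 50 changed 4-fold were called, with 11 false calls. The simulated counts had 1 mean per gene apart from these folds, a spread set by expression level alone and no outlying library. Only genes with at least 1 CPM were changed, so these rates need not hold for the real libraries or for rarer transcripts. Replicate pairs differed beyond counting noise (chi-square per degree of freedom 26.8 to 240). Same-numbered libraries of the groups did not deviate together (9 pairs, correlations -0.173 to 0.0666). No pairing was used. Named genes were the JNK genes, the 14 largest rises and the 14 largest falls among called genes with at least 1 CPM and the same sign at all 4 hours, up to 4 such members of each of 40 lists, and, whether or not they met these conditions, the 2 most abundant members of each list without a call. The members, hours and lists were chosen with earlier results of these data known. GENCODE M21 (GRCm38) gave coordinates. Results for some genes are not reported here.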

Additional observations from a re-analysis of the deposited data

Results flagged for a closer look

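Of 124 values tested over the 10 JNK7b libraries, 24 had a highest or lowest library whose gap to its neighbour exceeded Dixon's critical share of the range for groups of 10. For independent, normally distributed values this happens in about 1 in 20 groups. Most values here were CPM without a log, pooled over 4 clock hours, and several genes are related. That rate therefore need not hold, and the 24 cannot be read against it. The 11 JNK7a libraries were not tested in this way. JNK7b 5 h replicate 2 was the outlying library in 13 of the 24. It was lowest for Mapk8 (12.7 CPM) and for the sulfotransferase gene Gal3st1 (0.560 CPM). It was highest for the immunoglobulin genes Ighv1-4 (2.37 CPM), Ighg1 (42.1 CPM), Ighg3 (2.83 CPM), Ighv8-8 (5.41 CPM), Igkv10-96 (6.92 CPM) and Igkv1-135 (3.76 CPM). It was also highest for Dnaic1 (1.58 CPM), Ces2c (85.7 CPM), Cyp2c37 (569.7 CPM), Enho (28.3 CPM) and Ifi47 (22.6 CPM).

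JNK7b 2 h replicate 3 was highest for 6 genes, Slc22a27 (30.5 CPM), the receptor gene Gprc5b (16.6 CPM), Fabp4 (25.4 CPM), Cyp2c38 (157 CPM), the endothelial gene Eng (70.1 CPM) and Spp1, encoding osteopontin (64.9 CPM). The other 5 values were Derl3 at 4.41 CPM in JNK7b 17 h replicate 3, Ier2 at 17.0 CPM in JNK7b 2 h replicate 2, Cspg5 at 1.93 CPM in JNK7b 14 h replicate 2, Acat2 at 209 CPM in JNK7b 17 h replicate 1 and Mmp9 at 3.38 CPM in JNK7b 14 h replicate 1.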

How the results depend on the processing

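Across the settings tried, 37 of the 108 named called genes kept direction and call in every one and 0 changed direction. The counts of 757 higher and 558 lower genes were 916 and 631 with DESeq2 and 658 and 466 with limma voom. Settings that moved a count by over 1.5 times included limma on log2(TPM + 1) (439 higher) and log2(TPM + 0.1) (448 higher), and no filter on low counts (307 lower). A fit on the 21 libraries alone (296 lower) and the replicate block described below did so too. The same held for leaving out JNK7b 5 h replicate 1 and, for the lower genes, JNK7b 14 h replicate 1. The others were leaving out clock hour 2 (398 and 205) or 17 (488 and 233), and a fold of at least 2 (120 and 87). Fewer genes pass the last by construction, and fewer libraries enter the fit on 21 libraries. Leaving out an hour kept all 69 libraries in the fit and took that hour out of the contrast only. The cause of the shifts other than that of the fold rule was not tested. Leaving out single libraries gave 469 to 890 higher and 270 to 592 lower genes. The share of higher among called genes was 57.6% with edgeR and 49.3% on log2(TPM + 1). With a replicate block of hour and number, where same-numbered libraries did not deviate together (9 pairs, correlations -0.173 to 0.0666), 275 higher and 134 lower genes were called and 53 of 108 named genes lost their call. Depth limits the immunoglobulin and Dnaic1 values, since several JNK7b libraries were at or near 0 CPM for them.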
